A study of Mus musculus with 6 samples.

Results

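The splicing factor genes of MPC5 cells, a mouse podocyte line, were compared between 3 samples overexpressing the lncRNA Dlx6-os1 and 3 control samples, all grown in normal glucose. Members were the rows of the deposited table whose gene symbol begins with Srsf and a number, Hnrnp, Sf3a or Sf3b and a number, Snrp or U2af, together with Clk1 to Clk4, Tra2a and Tra2b. They came to 60 genes with 151 transcripts, of 11308 genes and 21849 transcripts in all. There were 10 SR protein genes with 23 transcripts, 2 TRA2 genes with 4, 4 CLK genes with 9, 3 U2AF genes with 12, 9 SF3 genes with 11, 12 snRNP genes with 17 and 20 hnRNP genes with 75. In the labels the strain is C57BL/6, the overexpressing samples carried a lentivirus encoding Dlx6-os1, and the controls carried a vector without insert under a title of WT. The methods of the study name an adenovirus and normal controls instead, and control replicate 3 has no genotype label. Nothing in the labels says that samples of a group came from separate cultures, so the p-values measure the spread between these samples, which may be technical.

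Splicing removes introns from RNA copies of genes in the nucleus. The U1 snRNP marks the 5′ end of an intron (the donor site), the U2AF proteins read the pyrimidine tract and the AG at its 3′ end (the acceptor site), and the U2 snRNP with its SF3a and SF3b proteins binds the branch point. SR proteins mostly promote the use of nearby exons and hnRNP proteins mostly repress it, while CLK kinases phosphorylate SR proteins and TRA2 proteins bind exonic enhancers. Many of these genes are themselves alternatively spliced, often between forms that keep the reading frame and forms that are degraded.

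The table bears on only some of these forms. In the GENCODE annotation (release M21, GRCm38) the member genes have 209 protein-coding transcripts, of which 150 had a row. Of 63 transcripts annotated as targets of nonsense-mediated decay 1 had a row, Hnrnpk-011, and of 157 retained-intron transcripts 0 had one. Transcripts below a group mean of 0.5 FPKM (a fragment count scaled by transcript length and by library size) in both groups had also been left out. Srsf12, on chromosome 4, is an annotated SR protein gene with no row. The values below thus describe coding isoforms. A share is the FPKM of a transcript as a percentage of the summed FPKM of the listed transcripts of its gene.

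Several member genes differ between isoforms by a few bases at a splice site, and the sequences of these sites are shown because some of the isoform values turn on them. Each was read 5′ to 3′ on the coding strand from the GENCODE M21 transcripts (GRCm38). Capitals mark the bases present only in the longer form.
Srsf5-003, chromosome 12, exon 8, acceptor at 80949717: caaaaggcacagCAGgtcaagaagcaggtc
Srsf5-001, chromosome 12, exon 8, acceptor at 80949720: caaaaggcacaggtcaagaagcaggtc
Srsf10-001, chromosome 4, exon 5, acceptor at 135863523: cagtcctagaaaCAGtagaccgactggaag
Srsf10-003, chromosome 4, exon 5, acceptor at 135863526: cagtcctagaaatagaccgactggaag
Clk2-001, chromosome 3, exon 3, acceptor at 89168695: tcggtcccgaagCAGctatgatgaccattc
Clk2-003, chromosome 3, exon 4, acceptor at 89169615: cgctcatcttcaCAGcacagcagccggaga
Tra2a-004, chromosome 6, exon 6, donor at 49245476: ttatgattaccgGTACAGaagaaggtcgcc
U2af2-009, chromosome 7, exon 10, donor at 5075239: gccacgctgGTGAGCCTCCCGagcaccatc
The 4 acceptor pairs of Srsf5, Srsf10 and Clk2 lay 3 bases apart, and the extra bases were CAG in each. The donor pairs of Tra2a and U2af2 lay 6 and 12 bases apart, so each of these choices keeps the reading frame. Splice sites of the same kind within 12 bases of each other were found among the listed transcripts of 9 of 33 member genes with 2 or more rows, or 27.3%, and in 15.4% of 5251 such genes of the whole table. This is a description of the annotation behind the rows and was not tested.

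Summed over their listed transcripts, the member genes held 4417, 4362 and 4462 FPKM in control replicates 1 to 3 and 4733, 4490 and 4856 FPKM in overexpression replicates 1 to 3. The groups did not overlap in this sum. As a percentage of all listed FPKM the members took 1.34%, 1.21% and 1.20% in the controls and 1.38%, 1.31% and 1.31% in the overexpressing samples, and on this scale the groups overlapped. In bulk samples a change in the RNA of each cell and a change in the mixture of cells cannot be told apart. Markers of the labelled cell type were present in part: 6 of 13 podocyte markers had rows, and Nphs1, which encodes the slit diaphragm protein nephrin, had none. Cdh16, a kidney tubule marker, was listed at 236, 323 and 197 FPKM in the controls and 157, 135 and 66.0 FPKM in the overexpressing samples. The summed level of the 3 tubule markers with a row ranged from 280 to 413 FPKM in controls and from 116 to 231 FPKM with overexpression, and both Cdh16 and Lrp2 among them were lower at the thresholds of the study. Of the 6 podocyte markers 2 had a log2 change above 0, and the sum of all 6 was 373 to 462 FPKM in controls and 340 to 397 FPKM with overexpression. The 1 podocyte marker that passed the thresholds was Kirrel, a slit diaphragm gene, at 134, 131 and 119 FPKM in controls and 30.03, 31.1 and 70.9 FPKM with overexpression. Of 3 mesangial markers with a row 1 had a log2 change above 0 and 1 passed the thresholds. The 1 immune marker with a row did not pass. The mesangial marker that passed was Gata3, at 4.17, 4.04 and 4.17 FPKM and at 1.79, 1.86 and 0.757 FPKM. Plvap, the 1 endothelial marker with a row, was at 1.14, 0.971 and 1.02 FPKM and at 1.85, 1.61 and 2.98 FPKM. At the thresholds of the study Kirrel and Gata3 were lower and Plvap higher. Of these 3 with Cdh16 and Lrp2, 5 markers, 0 passed an adjusted p (limma). The part of these markers in the results below was not tested.

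At the thresholds of the study (unadjusted p under 0.05 and a fold above 1.5, here from limma on log2(FPKM + 1)), 0 of 60 member genes were higher and 0 were lower with Dlx6-os1 overexpression. Over all 11308 genes 2.49% were higher and 2.23% lower, so the counts of 0 were read against a low background. At an unadjusted p under 0.05 alone, limma called 2 members higher, Sf3b2 and Srsf1, and 0 lower, beside 5.29% and 3.87% of all genes. With Benjamini-Hochberg adjustment 0 members passed, and 0.0354% of all genes did. The log2 change ran from -0.72 for Srsf4 to 0.56 for Hnrnph1, with a median of 0.05 over the members and 0.03 over all genes, and it was above 0 in 40 of 60 members and in 54.2% of all genes. The 95% confidence interval lay within a 1.5-fold change in either direction for 38 of 60 members (39.7% of all genes), so for the other 22 a change of that size was not shown to be absent.

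**Figure D1:**
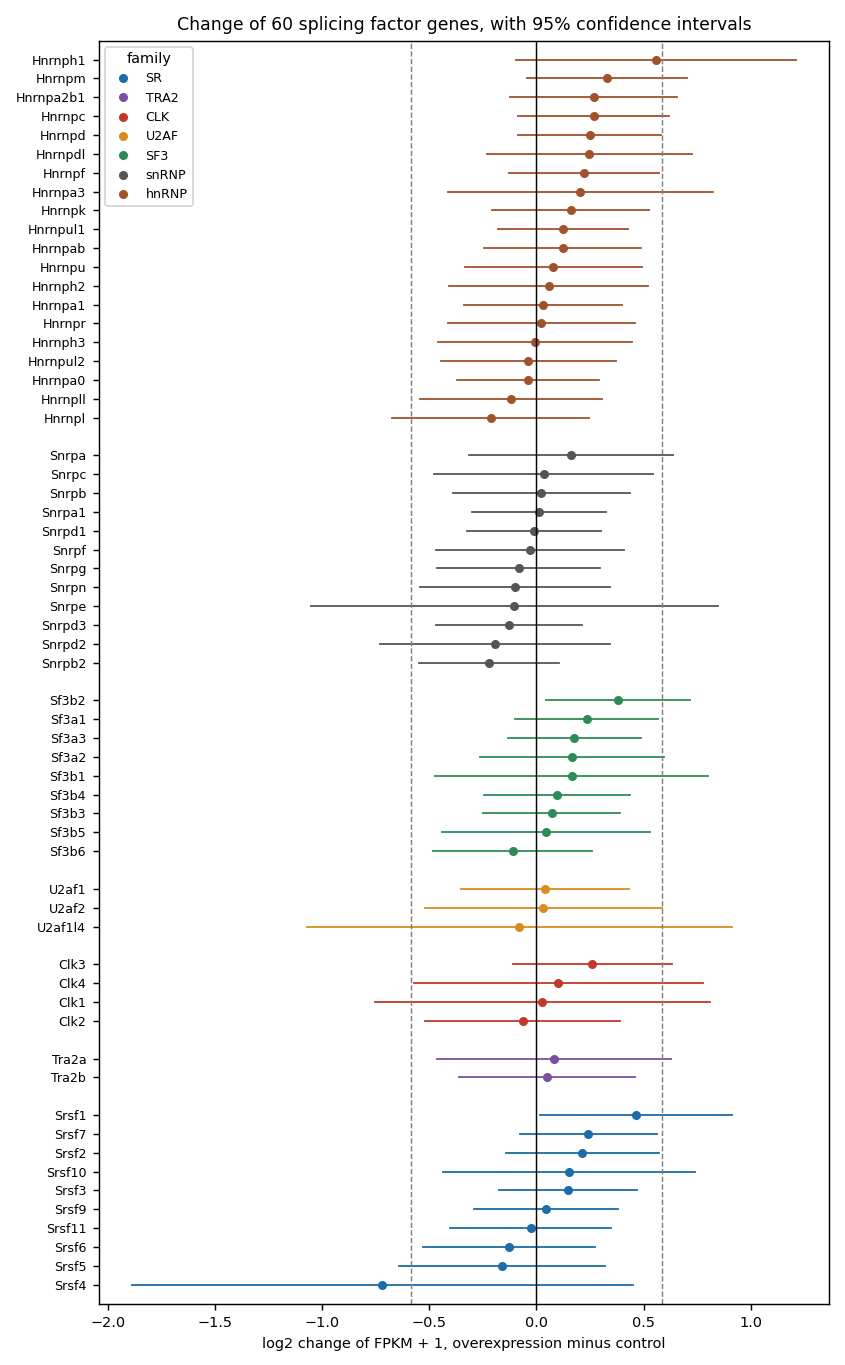
Points give the log2 change of FPKM + 1 (overexpression minus control, 3 samples each) of the 60 genes by family, bars the 95% confidence interval, and dashed lines a fold of 1.5. The intervals of Srsf1 and Sf3b2 alone lie above 0, and 0 intervals lie beyond a dashed line.

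The SR protein genes were expressed at control means from 16.3 FPKM (Srsf1) to 112.5 FPKM (Srsf9). Srsf1, a founding SR protein that promotes exon inclusion, was listed at 20.8, 15.1 and 12.9 FPKM in the controls and 24.7, 22.7 and 20.1 FPKM with overexpression. The highest control value was above the lowest overexpression value. Its log2 change was 0.47 (SE 0.20) with an unadjusted p of 0.0433 and an adjusted p of 0.533 (limma). The unadjusted p no longer passed after rescaling to TPM, quantile normalization, median-centring or use of the highest transcript alone, or when control replicate 2 or 3, or overexpression replicate 1 or 2, was left out. These alternatives gave log2 changes from 0.31 to 0.49. Without control replicate 1 the log2 change was 0.65, and Srsf1 then passed both thresholds of the study. Without overexpression replicate 3 it was 0.54, with the unadjusted p still under 0.05 (limma).

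Srsf7, whose 1 listed transcript encodes an SR protein with a zinc knuckle, was at 52.7, 52.9 and 55.5 FPKM in the controls and 58.1, 61.6 and 72.1 FPKM with overexpression. All 3 overexpressing samples were above all 3 controls, with a log2 change of 0.24 and an adjusted p of 0.639 (limma). Groups that did not overlap were seen in 8 of 60 members, 7 higher and 1 lower, against 16.3% of all genes (10.1% higher and 6.24% lower). Srsf4 had the most negative change, which came from a single sample: it was at 36.3, 8.37 and 7.03 FPKM in the controls and 8.22, 8.01 and 6.55 FPKM with overexpression. The other 5 samples lay between 6.55 and 8.37 FPKM, and the adjusted p over all samples was 0.701 (limma).

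The other SR protein genes overlapped between groups. Srsf9 had a mean of 113 ± 13.6 FPKM in controls and 116 ± 4.08 FPKM with overexpression (SD, n = 3 each, as for the genes that follow). Srsf2, which binds exonic enhancers, had means of 108 ± 13.4 and 125 ± 12.8 FPKM, and Srsf3 62.8 ± 6.22 and 69.6 ± 4.28 FPKM. Srsf5 had 86.6 ± 18.7 and 77.2 ± 15.2 FPKM, Srsf6 42.2 ± 7.61 and 38.4 ± 5.50 FPKM, Srsf11 43.4 ± 7.01 and 42.4 ± 4.43 FPKM, and Srsf10 21.0 ± 8.68 and 22.3 ± 1.96 FPKM. Their log2 changes were between -0.16 and 0.21, and 0 passed an unadjusted p of 0.05 by limma.

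Tra2b, which binds GAA-rich exonic enhancers, was at 45.1, 30.9 and 30.7 FPKM in controls and 37.3, 33.5 and 38.1 FPKM with overexpression. Tra2a, its paralog, had means of 11.9 ± 3.26 FPKM in controls and 12.6 ± 3.17 FPKM with overexpression (SD, n = 3 each). Both overlapped, and in both control replicate 1 was the highest control. Among the kinases Clk3 was the most abundant, at 19.8, 25.4 and 25.4 FPKM in controls and 25.5, 27.7 and 31.7 FPKM with overexpression. These groups do not overlap, but the lowest overexpression value and the highest control value differ little, and the adjusted p was 0.657 (limma). Clk2 had means of 11.4 ± 1.74 and 11.0 ± 2.28 FPKM, Clk4 8.97 ± 4.35 and 9.04 ± 0.315 FPKM, and Clk1 6.66 ± 3.23 and 6.40 ± 1.58 FPKM (SD, n = 3 each). In Clk1 and Clk4 control replicate 3 was the lowest of the 6 samples, and their confidence intervals are wide, from -0.76 to 0.81 for Clk1 on the log2 scale.

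**Figure D2:**
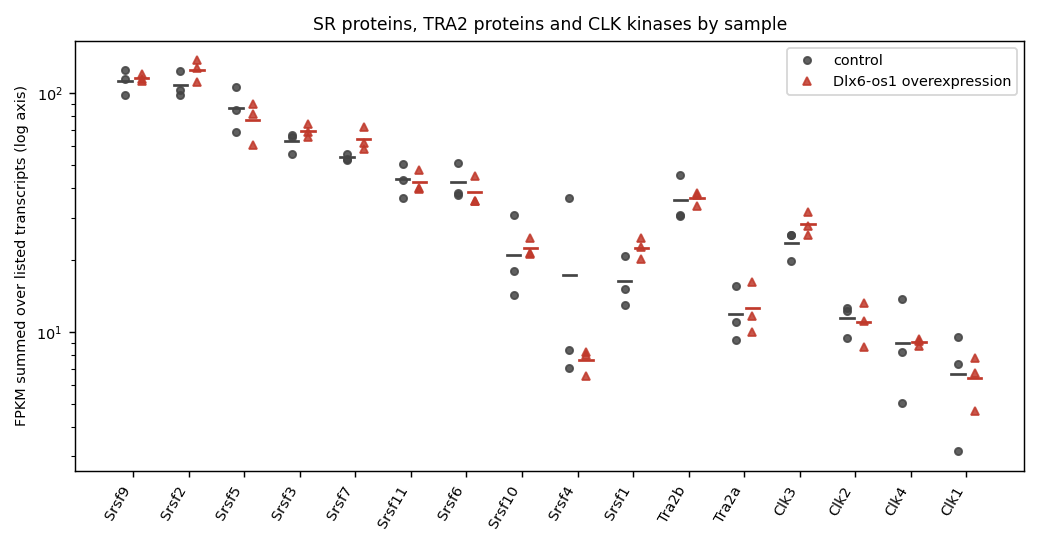
Points give the summed FPKM (log axis) of each SR, TRA2 and CLK gene in each sample, circles for control and triangles for overexpression, and lines the mean of 3 samples. Srsf7 and Clk3 are the genes whose groups do not overlap, and Srsf4 has 1 control at 36.3 FPKM above all others.

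The factors that define the 3′ splice site showed small differences. U2af1, the subunit that reads the acceptor AG, was at 112, 140 and 133 FPKM in controls and 135, 111 and 152 FPKM with overexpression. U2af2, which binds the pyrimidine tract, was at 73.3, 104 and 137 FPKM and at 90.3, 97.1 and 128 FPKM. U2af1l4, a paralog of U2af1, had a control mean of 8.08 ± 3.41 FPKM and an overexpression mean of 7.94 ± 4.22 FPKM (SD, n = 3 each). All 3 overlapped between groups. The log2 change was positive in 8 of 9 SF3 genes (median 0.16). Sf3b2, an SF3b subunit of the U2 snRNP, was at 100.1, 120 and 119 FPKM in controls and 138, 157 and 147 FPKM with overexpression. Every overexpressing sample was above every control, with a log2 change of 0.38 (SE 0.15), an unadjusted p of 0.0309 and an adjusted p of 0.512 (limma). The unadjusted p did not pass without control replicate 2 or without any of the 3 overexpression replicates, where the log2 change was 0.33 to 0.43.

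Sf3a1, a subunit of SF3a, was at 28.5, 35.1 and 36.3 FPKM and at 40.2, 37.8 and 39.5 FPKM, and Sf3a3 at 42.5, 43.5 and 45.5 FPKM and at 46.1, 48.2 and 55.1 FPKM. In both genes the groups did not overlap, and the adjusted p-values were 0.656 and 0.724 (limma). Sf3b3, the most abundant of the SF3 genes in controls, had means of 118 ± 9.35 and 124 ± 7.55 FPKM (SD, n = 3 each). Sf3b1, which contacts the branch point, was at 59.2, 27.7 and 29.3 FPKM in controls and 45.6, 42.2 and 35.4 FPKM with overexpression. Control replicate 1 stands above the rest, and without it the log2 change went from 0.16 to 0.51 with an unadjusted p under 0.05.

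Among the snRNP genes the log2 change was positive in 4 of 12 (median -0.06). Snrpb, an Sm protein of the ring common to spliceosomal snRNPs, was the most abundant, at 132, 183 and 195 FPKM in controls and 163, 167 and 182 FPKM with overexpression. Snrpb2, a U2 snRNP protein, was the only member whose overexpressing samples all lay below the controls, at 24.0, 21.1 and 21.0 FPKM and at 19.6, 17.2 and 19.3 FPKM. Its log2 change was -0.22 with an adjusted p of 0.670 (limma). Snrpe, another Sm protein, varied most within the overexpressing group, with 115, 44.0 and 167 FPKM against 88.8, 109 and 109 FPKM in controls.

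The hnRNP genes held the most RNA of the families. Hnrnpab, an RNA-binding protein named for its likeness to hnRNP A and B, was at 410, 461 and 462 FPKM in controls and 484, 503 and 463 FPKM with overexpression. The groups are separate by a small margin, the log2 change was 0.12 and the adjusted p 0.863 (limma). Hnrnpa1, a repressor of exon use, had means of 252 ± 29.9 and 257 ± 17.7 FPKM, and Hnrnpa2b1 261 ± 44.5 and 311 ± 3.93 FPKM (SD, n = 3 each). Hnrnph1, which binds G-rich RNA, was at 10.2, 9.07 and 5.75 FPKM and at 18.7, 10.9 and 9.41 FPKM. It had the largest increase, a log2 change of 0.56 (SE 0.29), with an unadjusted p of 0.0848 and an adjusted p of 0.601 (limma). With single samples left out its log2 change ran from 0.28 without overexpression replicate 1, and 0.34 without control replicate 3, to 0.74 without overexpression replicate 3, where the unadjusted p passed 0.05.

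The log2 change was positive in 15 of 20 hnRNP genes (median 0.12). Control replicate 1 was the highest control in 15 of 20 of them. The same held in 5 of 10 SR, 2 of 2 TRA2 and 3 of 4 CLK genes. It held in 0 of 3 U2AF, 1 of 9 SF3 and 1 of 12 snRNP genes. The share over all genes is not given here. Hnrnpa3, which is close to hnRNP A1, was at 192, 89.4 and 112 FPKM in controls and 144, 166 and 124 FPKM with overexpression. Its log2 change was 0.21 in all samples, 0.52 without control replicate 1, where the unadjusted p passed, and -0.03 without control replicate 2. Without control replicate 1 Hnrnpa2b1, Hnrnpk, Hnrnpm, Hnrnpdl and Hnrnpd, with the SR gene Srsf10, also reached an unadjusted p under 0.05, with log2 changes from 0.29 to 0.46. Over all genes, those higher at the thresholds of the study numbered 343 without this sample against 282 with it. The share of all genes at an unadjusted p under 0.05 without it is not given here, so these calls are not read as a result about the members.

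The samples differed in a way that followed transcript length. In control replicate 1 the deviation of a gene from its mean over the 6 samples rose with transcript length across all genes (Spearman's rho 0.41 over 11294 genes), and in control replicates 2 and 3 it fell (-0.20 and -0.36). In overexpression replicates 1 to 3 rho was 0.31, 0.18 and -0.30. Over the 60 members the values were 0.33, -0.48 and -0.42 in controls and 0.16, 0.46 and -0.34 with overexpression. Genes share libraries and are not independent replicates, so these are descriptions. The snRNP genes are shorter than the hnRNP genes, with a median length of 1204.5 bases against 2596. Of all families U2AF had the lowest median length, 1027 bases, and SF3 the highest, 3222 bases. Summed snRNP FPKM was 690, 862 and 915 in controls and 816, 671 and 969 with overexpression, lowest in overexpression replicate 2 and control replicate 1. Summed hnRNP FPKM was 2316, 2044 and 2077 in controls and 2404, 2325 and 2286 with overexpression, and control replicate 1 was the highest control. Summed SF3 FPKM was 508, 561 and 558 in controls and 591, 603 and 612 with overexpression. Summed U2AF FPKM was 190, 254 and 281 in controls and 234, 211 and 291 with overexpression. The longest family, SF3, and the shortest, U2AF, were thus both lowest in control replicate 1. The part of length in the differences between groups was not tested.

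**Figure D3:**
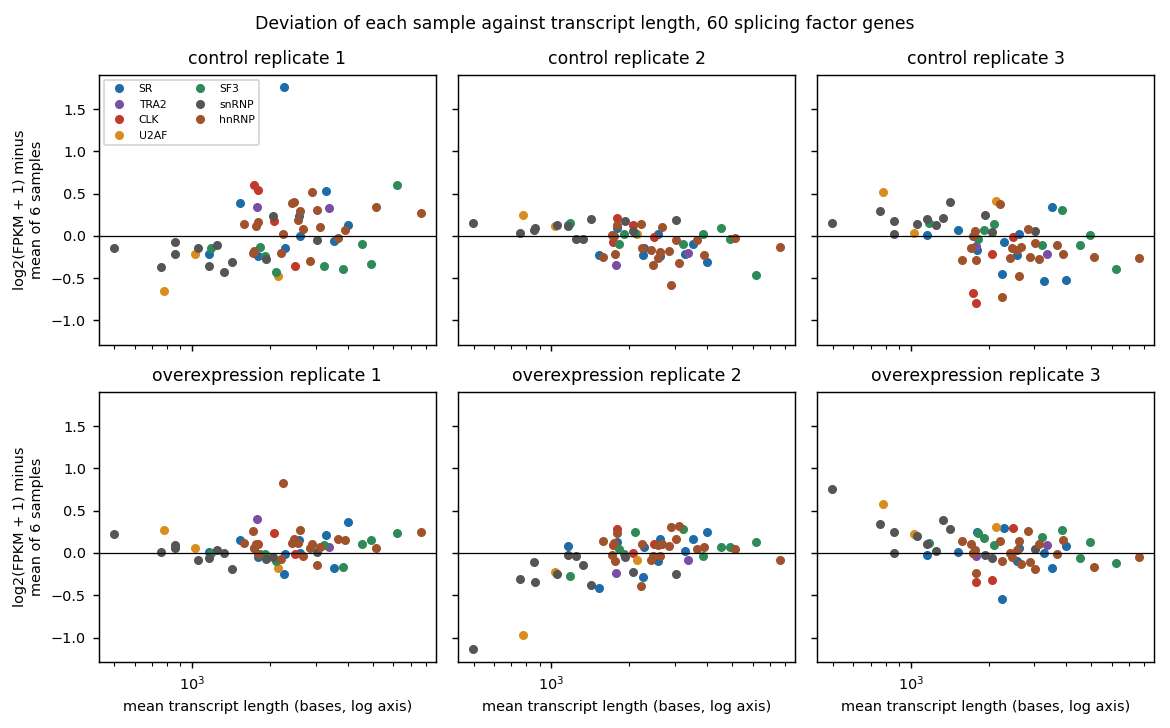
Points give the deviation of the 60 genes in each sample from their mean over 6 samples, log2(FPKM + 1), against mean transcript length in bases (log axis), coloured by family. The trend is upward in control replicate 1 and overexpression replicate 2 (rho 0.33 and 0.46) and downward in control replicates 2 and 3 and overexpression replicate 3.

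Single transcripts were tested next, since a gene sum can hide a change of isoform. At the thresholds of the study 5 of 151 member transcripts were higher, or 3.31%, and 1 was lower, or 0.662%. Over all 21849 transcripts 3.07% were higher and 2.51% lower, so the higher share is near the background. At an unadjusted p under 0.05 alone 9 were higher and 1 lower, against 4.33% and 3.25% of all transcripts. In 20 transcripts all overexpressing samples lay above the controls and in 3 below, against 9.39% and 5.85%. With adjustment over all transcripts 0 members passed by limma, and 0.101% of all transcripts did. Shares were called where the unadjusted p of the log2 odds was under 0.05 and the mean share moved by 10 percentage points or more. Of 124 transcripts from 33 genes 3 were called, or 2.42%, against 3.99% of 15819 transcripts. Of these 2 were higher and 1 lower, against 1.91% and 2.08%, 5 had an unadjusted p under 0.05 against 6.39%, and 0 passed an adjusted p against 0.209%. The called shares lay in 3 of 33 genes, or 9.09%, against 7.79% of genes. Member transcripts of genes with 2 or more rows spread more between samples of a group than their sums, with a median SD of 0.30 against 0.25 on the log2 scale.

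Srsf5-003, the Srsf5 form with the extra CAG at exon 8 printed above, was at 2.05, 1.63 and 3.21 FPKM in controls and 11.4, 19.5 and 6.16 FPKM with overexpression. Each overexpressing sample was above each control. The log2 change was 1.92 (SE 0.41) with an unadjusted p of 0.00287 and an adjusted p of 0.485 (limma). Its share of Srsf5 was 1.94%, 2.37% and 3.78% in controls and 12.7%, 32.4% and 7.58% with overexpression, a difference of 14.9 points (adjusted p 0.742, limma). Overexpression replicate 2 gave much of this difference, which was 7.45 points without it, and the share was then no longer called. The call of the transcript itself was lost in 0 of 14 alternatives, with a log2 change of 1.54 without overexpression replicate 2. The main form, Srsf5-201, held 78.3%, 76.6% and 74.1% in controls and 63.5%, 14.6% and 66.9% with overexpression, with an adjusted p of 0.764 (limma). The Srsf5 sum itself did not separate the groups.

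Srsf10-004 was at 1.48, 1.82 and 1.46 FPKM in controls and 3.93, 5.26 and 3.72 FPKM with overexpression, again without overlap. Srsf10 encodes an SR-like protein that acts as a splicing repressor when dephosphorylated. The log2 change of this form was 1.03 (SE 0.22), with an unadjusted p of 0.00253 and an adjusted p of 0.485 (limma). Srsf10-004 joins the shorter exon 5 acceptor with a farther last exon and has a coding length of 546 bases, against 786 for Srsf10-001. Its share was 4.81%, 10.1% and 10.3% in controls and 16.0%, 24.7% and 17.7% with overexpression, a difference of 11.0 points with an unadjusted p of 0.0388 and an adjusted p of 0.758 (limma). The share was no longer called when control replicate 1, control replicate 2, overexpression replicate 2 or overexpression replicate 3 was dropped, with differences of 8.41 to 11.9 points. The call of the transcript itself was lost in 0 of 14 alternatives. Its log2 change was 0.90 to 1.10 with single samples left out.

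Added over its 4 forms, the longer exon 5 acceptor of Srsf10 made up 89.9%, 82.6% and 82.4% of Srsf10 in controls and 78.3%, 68.6% and 74.8% with overexpression. The farther last exon made up 55.7%, 56.7% and 59.8% in controls and 64.6%, 77.8% and 61.8% with overexpression. Both readings separate the groups, and overexpression replicate 2 is the most distant sample in each. These events were chosen after their values were seen and were not tested. By the same description the longer acceptors of Clk2 overlapped between groups, with exon 3 at 67.6%, 72.7% and 65.3% in controls and 77.0%, 58.9% and 74.2% with overexpression. The longer donor of Tra2a was at 13.9%, 28.3% and 32.7% and at 26.8%, 22.7% and 22.3%, and that of U2af2 at 26.4%, 43.0% and 44.4% and at 31.2%, 46.1% and 50.3%. Of the CAG acceptor pairs, those of Srsf5 and Srsf10 were separate between groups and those at both Clk2 exons overlapped. The longer form was higher with overexpression in Srsf5 and lower in Srsf10. Only Srsf5-003 has the longer Srsf5 acceptor, so that percentage is its called share again, and the called Srsf10-004 has the shorter Srsf10 acceptor. The separation in these genes therefore adds no support to those calls. How often such pairs separate over all genes was not counted.

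**Figure D4:**
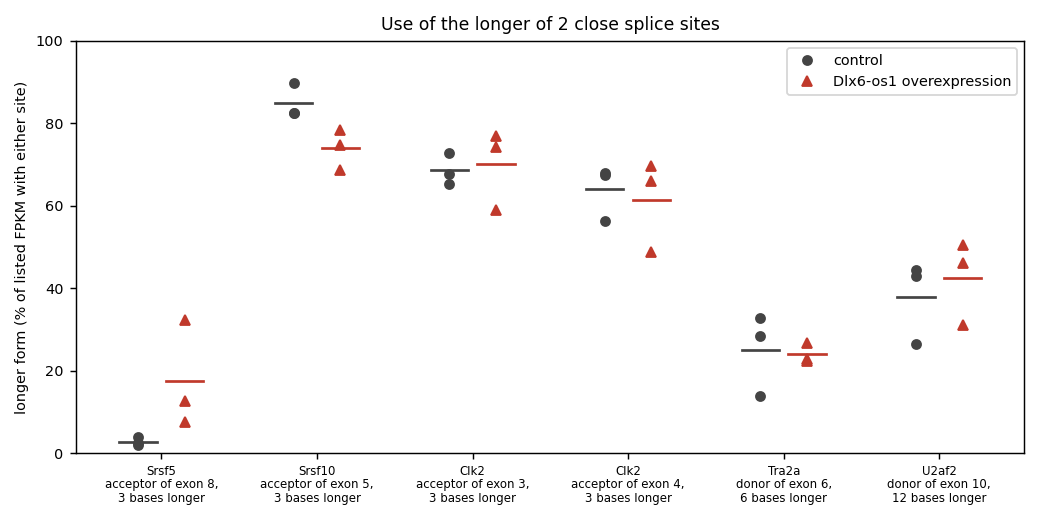
Points give the longer form as a percentage of the listed FPKM with either site in each sample, circles for control and triangles for overexpression, with lines for the mean of 3 samples. The groups are separate for Srsf5 and Srsf10 and overlap for Clk2, Tra2a and U2af2.

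Snrpa, the A protein of the U1 snRNP, had 3 listed transcripts on chromosome 7 that share a coding length of 861 bases and differ at their first exons. Snrpa-001 was at 18.0, 16.8 and 13.5 FPKM in controls and 28.3, 23.8 and 36.8 FPKM with overexpression. The groups are separate, with a log2 change of 0.83 (SE 0.21) and an adjusted p of 0.557 (limma). Its call at the thresholds of the study was lost in 0 of 14 alternatives. Snrpa-002 was at 13.9, 13.2 and 18.1 FPKM and at 20.1, 21.7 and 28.8 FPKM, with a log2 change of 0.61 and an adjusted p of 0.644 (limma). Median-centring, or leaving out control replicate 1, control replicate 2 or overexpression replicate 3, ended this call, where the log2 change was 0.46 to 0.56.

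Snrpa-201, which starts farther downstream, was at 17.8, 35.6 and 46.5 FPKM in controls and 18.7, 15.2 and 22.4 FPKM with overexpression, and control replicate 1 lies among the overexpressing samples. Its share was 35.8%, 54.3% and 59.6% in controls and 27.9%, 25.0% and 25.4% with overexpression. The share fell by 23.8 points, with an unadjusted p of 0.0128 and an adjusted p of 0.758 (limma), and it stayed called when any single sample was left out, with differences of -30.9 to -19.0 points. The Snrpa sum had a log2 change of 0.16 and overlapped between groups.

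The other called transcripts were of low level. Hnrnpr-004, a 292-base form of Hnrnpr, was at 0.911, 0.823 and 0.739 FPKM in controls and 2.29, 1.93 and 1.30 FPKM with overexpression. Its adjusted p was 0.646 (limma), and 6 of 14 alternatives lost the call. Hnrnpa3-003 was the only member transcript called lower, at 2.37, 3.38 and 2.17 FPKM in controls and 1.10, 1.49 and 1.43 FPKM with overexpression. Its log2 change was -0.63 with an adjusted p of 0.649 (limma), and the call was lost without control replicate 2 or overexpression replicate 1 or 3.

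Some isoform shares differed far more within a group than between groups. Hnrnpr forms with exon 2, which carries the first start codon, made up 16.2%, 91.3% and 93.2% of the forms compared in controls and 91.9%, 90.4% and 10.6% with overexpression. The low samples are control replicate 1 and overexpression replicate 3, 1 of each group, while the Hnrnpr sum was between 38.5 and 61.1 FPKM throughout. In Hnrnpf, the 4-exon form Hnrnpf-001 made up 15.3%, 13.5% and 15.3% of the forms compared in controls and 9.92%, 93.7% and 15.4% with overexpression, so overexpression replicate 2 stands apart. Hnrnpf-006, a shorter row that also has 4 exons, was not among the forms compared. It was the most abundant row in control replicate 2 and overexpression replicates 1 and 3. Srsf2-201, which has a splice junction 217 bases after its stop codon, held 22.4%, 35.3% and 9.68% of Srsf2 in controls and 3.51%, 28.9% and 4.68% with overexpression, and replicate 2 was the highest of each group. A junction more than 50 bases after the stop codon, a feature that can target an RNA for decay, was found in 4 of 151 member transcripts, or 2.65%, and in 0.538% of all transcripts. The most abundant transcript of a gene differed among the 6 samples in 13 of 33 members, or 39.4%, and in 40.4% of 5278 genes.

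**Figure D5:**
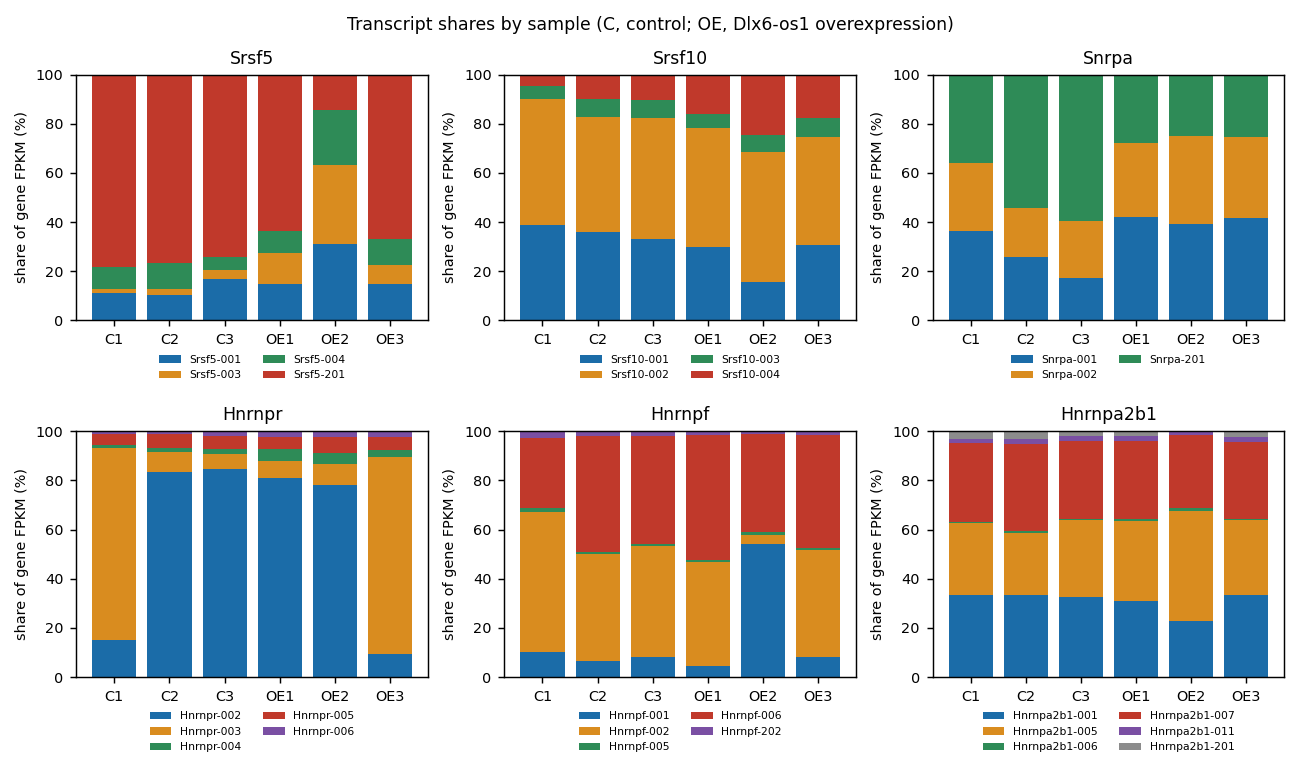
Stacked bars give the share of each listed transcript in the summed FPKM of its gene in each sample (C, control; OE, overexpression). Snrpa-201 is lower in all 3 overexpressing samples, Srsf5 departs most in overexpression replicate 2, and Hnrnpr switches its main form in control replicate 1 and overexpression replicate 3.

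Other splicing genes were read from lists for comparison. Of 55 core spliceosome and helicase genes, all with a row, 1 was higher and 0 lower at the thresholds of the study, with a median log2 change of 0.17 and 45 above 0. The higher gene was Sf1, which binds the branch point before the U2 snRNP, at 68.4, 65.6 and 78.7 FPKM in controls and 95.9, 119 and 109 FPKM with overexpression (adjusted p 0.421, limma). Of 44 measured splicing regulators 1 was higher and 0 lower, with a median of 0.09 and 34 above 0. It was Rbm39, a U2AF-related protein, at 32.1, 15.4 and 30.3 FPKM in controls and 56.4, 50.4 and 29.2 FPKM with overexpression, where overexpression replicate 3 lies among the controls (adjusted p 0.526, limma). Of 15 genes of the exon junction complex and nonsense-mediated decay 0 passed in either direction, with a median of 0.10 and 11 above 0. Over all genes 2.49% were higher and 2.23% lower at these thresholds, and 54.2% had a log2 change above 0. The lists were not tested as sets. At an unadjusted p under 0.05 alone (limma), 5 of the 55 core genes, 3 of the 44 regulators and 0 of the 15 were higher and 0 of any list lower, beside the 5.29% and 3.87% of all genes given above.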

How the data were processed

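The authors deposited 1 table of FPKM for transcripts that it types as protein-coding (GENCODE M21 types some otherwise, among them Hnrnpk-011), a unit that scales fragments by transcript length and library size. Per the labels, processing used FastQC, HISAT2 and StringTie on mm10, without versions. Libraries kept strand, but use of strand in assigning reads was not given in the sources used here. FPKM of isoforms that share exons are estimates, and reads of near-identical copies (Hnrnpa1, Hnrnpa3 and their pseudogenes, Snrpb and Snrpn) may be split between them. No steps worth 1 read were found in low values, so the depth is unknown and precision rests on 3 samples per group. Exact permutation of 3 against 3 samples cannot pass 0.05 and was not used.

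Columns were matched to samples by their descriptions. FPKM were summed per gene symbol. Gene sums, transcripts and the log2 odds of shares (FPKM + 1 of a transcript over FPKM + 1 of the others of its gene) were compared with limma 3.58.1 in R 4.3.3 (two-sided, eBayes with a mean-variance trend, pseudocount of 1), adjusted by Benjamini-Hochberg over all features. Folds on log2(FPKM + 1) understate changes of low genes. The model was run on simulated data with known changes and with errors drawn independently for each value. The simulation did not include the sample differences that followed transcript length. The first criterion set for share calls was not met, and it was replaced after that result was seen. Isoform structures and lengths came from GENCODE M21 on GRCm38, the assembly of mm10, and 151 of 151 member transcripts matched by identifier. Genes named were members at the thresholds, the 10 largest changes in each direction at an unadjusted p under 0.05, genes with a called transcript or share, the most abundant gene of each family, all SR, TRA2 and CLK genes, and others chosen after their values were seen. The members and lists were chosen with earlier results of these data known. Alternatives were pseudocounts of 0.1 and 0.5, a filter at a mean of 1, TPM, quantile normalization, median-centring, a replicate block, no trend, the highest transcript, diffSplice and leaving out each sample. Dlx6-os1 itself was not analysed here.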

Additional observations from a re-analysis of the deposited data

How the results depend on the processing

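At the thresholds of the study the count of higher member genes was 0 under each of the 9 alternatives that keep all samples. It was 1 without control replicate 1 (Srsf1) or without overexpression replicate 3 (Hnrnph1), and 0 without any other sample. The count of lower member genes was 0 throughout. Over all genes the counts, 282 higher and 252 lower in the main fit, were 228 to 373 and 241 to 314 under the alternatives that keep all samples. With a sample left out they were 203 to 407 and 181 to 382. Higher genes numbered 343 without control replicate 1 and 203 without overexpression replicate 3. Higher member transcripts numbered 3 under median-centring against 5, and 3 to 7 with a sample left out. Lower transcripts numbered 0 to 3 with a sample left out, against 1. Called shares numbered 6 with diffSplice against 3, and 2 to 6 with a sample left out. The counts over all transcripts and all shares under each alternative are not given here, so these ranges are not read as changes of the members. The median log2 change of the members was 0.0094 under median-centring against 0.048, and 0.037 to 0.097 with a sample left out. The cause of these differences was not tested. With the replicate number as a block the counts were 0 higher and 0 lower genes, 5 higher and 1 lower transcripts and 3 shares, as without it, and Hnrnph1 reached an unadjusted p under 0.05. Same-numbered samples correlated in their deviations at 0.29, 0.02 and 0.29, control replicate 2 correlated best with another number, and nothing in the labels pairs them. Changed calls of gene sums, and lost calls of the transcripts and shares called above, are given beside them in the report. The exceptions are Hnrnpc, which reached an unadjusted p under 0.05 with quantile normalization, and Hnrnpa2b1, which did so with its highest transcript. Transcripts and shares called only under an alternative enter the counts above and are not named. The depth is unknown, so no limit from counting can be set.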
